A study of Mus musculus with 10 samples.

Results

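The crystallin genes described here are Cryaa, Cryab, Cryba1, Cryba2, Cryba4, Crybb1, Crybb2, Crybb3 and Crygs, taken by symbol from a table of histone occupancy in the developing mouse retina. They are 9 of the 20045 gene symbols in the table and 10 of its 25152 entries, since Crybb3 has a pair of entries with identical values. Chromatin of whole retinas from embryonic day E17.5 and from the postnatal days PN1, PN7 and PN15 was digested with micrococcal nuclease, immunoprecipitated with anti-H3K4me2 or anti-H3K27me3 and sequenced (ChIP-Seq), with 1 library for each of the 2 marks and 4 stages. Each library came from the pooled retinas of at least 20 per stage according to the labels, and no stage has a replicate, so all differences below are between single libraries and none was tested. The sample labels give the strain Pde6b (rd1/rd1) for every library, whereas the methods of the study describe C57BL/6j mice and use rd1/rd1, a mutant that loses its rods, as the control for rod subtraction. The labels write the first stage as E17 and the protocol as E17.5. As a check of the tissue and stage labels, the summed H3K4me2 of 10 rod markers went from 168 at E17.5 to 943 at PN15, and each of the 10 was at least 2-fold higher at the later stage.

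Crystallins are the main soluble proteins of the lens, where they give the tissue its refractive index and transparency. The alpha-crystallins are small heat shock proteins that hold unfolding proteins in solution, and the beta- and gamma-crystallins form a separate family of compact proteins built from Greek key motifs, which pack as stable structural proteins. In the lens their promoters are driven by Maf, Pax6 and Sox factors, and several crystallins are also made at lower levels outside the lens, including in neurons and glia of the retina. H3K4me2 lies at active and poised promoters, and H3K27me3 is laid down by Polycomb complexes at repressed genes, most often where CpG dinucleotides are dense.

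The unit is the normalized occupancy, that is, the reads whose midpoint lies up to 2.5 kb from the start of transcription (TSS), which the authors scaled to the mapped total of each library and gave as whole numbers. All windows are 5 kb long, so that occupancies of different genes can be set side by side. In 5 of the 8 libraries the value of 1 read could be found from the whole numbers themselves and lay between 0.313 and 0.946 units. In the other 3 libraries it was at most 1 unit, and the counting intervals given for them are the widest that this allows. These 95% intervals cover counting error only. As a chosen guide to low values, 3 reads were worth between 0.938 and 2.84 units where the value of 1 read was found. Elsewhere they were worth at most 3 units, and lower values were kept. The background was read from the 1432 entries of 1376 olfactory, vomeronasal and taste receptor genes, which the retina does not use. A gene was called above background where it exceeded the 99th percentile of these receptors in the same library, which from E17.5 to PN15 was 6.69, 9, 1 and 9.69 for H3K4me2 and 32.0, 38.7, 38.7 and 39.0 for H3K27me3. Sets of 4 values below are given in the same order of stages. In whole retina, a mark carried by fewer cells and a mark at lower density in each cell cannot be told apart.

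The promoters of 8 of the 9 genes were found in RefSeq (GRCm38.p6; 250 bases before to 50 bases after the start), and each matched mm9, the build of the files, at exactly 1 place. Cryab was not among them. The 4 promoters below belong to the genes on which the results turn: Cryba2 carried by far the most H3K27me3, Cryba4 and the neighbouring Crybb1 had more of it at PN15 than at E17.5, and Cryba1 had the least. They lie at chr1:74939668-74939967, chr5:112681489-112681788, chr5:112684590-112684889 and chr11:77538746-77539045 of mm9, on the minus strand except for Crybb1, and capitals mark short motifs. One is TGCTGA, the core of the Maf recognition element, which reads TCAGCA on the other strand. The other is TATAAA, the TATA box.
Cryba2: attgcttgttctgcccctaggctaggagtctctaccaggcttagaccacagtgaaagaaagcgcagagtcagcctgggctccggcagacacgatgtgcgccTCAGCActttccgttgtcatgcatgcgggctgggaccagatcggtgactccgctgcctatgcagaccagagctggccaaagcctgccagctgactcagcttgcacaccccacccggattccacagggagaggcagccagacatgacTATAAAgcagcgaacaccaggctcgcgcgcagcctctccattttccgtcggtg
Cryba4: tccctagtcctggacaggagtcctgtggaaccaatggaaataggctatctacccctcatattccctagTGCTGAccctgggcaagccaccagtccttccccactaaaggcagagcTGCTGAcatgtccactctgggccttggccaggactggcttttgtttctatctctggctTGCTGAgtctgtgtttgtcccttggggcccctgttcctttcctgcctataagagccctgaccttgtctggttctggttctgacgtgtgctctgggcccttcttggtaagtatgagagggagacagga
Crybb1: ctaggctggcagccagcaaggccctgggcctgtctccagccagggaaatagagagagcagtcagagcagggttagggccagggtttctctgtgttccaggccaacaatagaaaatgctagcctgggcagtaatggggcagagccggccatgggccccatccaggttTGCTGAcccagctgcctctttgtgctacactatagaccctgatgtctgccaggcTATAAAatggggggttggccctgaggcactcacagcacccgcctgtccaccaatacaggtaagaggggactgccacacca
Cryba1: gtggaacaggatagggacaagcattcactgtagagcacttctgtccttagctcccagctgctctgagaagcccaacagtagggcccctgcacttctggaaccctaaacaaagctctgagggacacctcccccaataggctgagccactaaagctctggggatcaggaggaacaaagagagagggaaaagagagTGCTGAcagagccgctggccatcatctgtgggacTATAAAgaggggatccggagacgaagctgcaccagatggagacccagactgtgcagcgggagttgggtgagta

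TGCTGA, searched on both strands, was present in 7 of the 8 promoters, and in 19.1% of all 27025 RefSeq promoters of the same length. Cryba4 had 3 copies, beginning 182, 135 and 77 bases before its start, while Cryaa, Cryba1, Cryba2, Crybb1, Crybb3 and Crygs had 1 each and Crybb2 had none. Crybb2 has another annotated coding start, and the starts that the authors used are not listed beside the occupancies, so its promoter and 5-kb window here may not be the ones that were counted. TATAAA was present in 4 of the 8 and in 14.2% of all promoters. It began 23 bases before the start in Cryba1, 30 in Crybb1 and 25 in Crygs, but only 3 in Cryba2. GAANNTTC, the core of a heat shock element, was found in 0 of the 8 windows and in 7.95% of all promoters. The letters are matches in a reference sequence and no binding was measured here. The promoters differed widely in CpG: Cryba2 had 15 CpG in 300 bases, more than 64.8% of all promoters, against 7 in Cryaa, 6 in Crybb3, 4 in Cryba1, 3 in Crygs, 2 in Crybb1, 1 in Cryba4 and 0 in Crybb2.

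Most crystallin genes carried both marks at levels above the median of the silent receptors but mostly within or just past their upper range. In every library their median was below that of all symbols in H3K4me2 and above it in H3K27me3. A single gene, Cryba2, stood far apart in H3K27me3. In H3K4me2 the crystallin genes above background numbered 6 at E17.5 (72.6% of all symbols were above it), only 1 at PN1 (69.0%), again 6 at PN7 (72.1%) and 2 by PN15 (68.3%). With the 95th percentile of the receptors the count at PN1 was 3, and 28.0% of all symbols were at or below it. The 6 genes at E17.5 and the 6 at PN7 had values of at most 18 and 11. At E17.5 the counting intervals of Cryaa, Cryba1, Cryba4, Crybb1 and Crybb3 included the background and that of Cryba2 (12.6 to 25.4) did not, and at PN15 those of Cryab and Cryba2 included it. At PN7, where the value of 1 read was not found, the background was 1 unit and 3 reads were worth at most 3 units. Crybb3 was counted there at 2 units, and the widest intervals of Cryaa, Cryba4, Crybb1 (3 units each, 0.619 to 8.77) and Crybb3 (0.242 to 7.22) included the background. The median H3K4me2 of the 9 genes was 9, 8, 3 and 5 over the 4 stages, against 41, 27, 24 and 42 over all symbols and 2, 4, 0 and 2 over the receptors. The crystallin genes thus lay between the receptors and the typical gene, nearer to the receptors in every library.

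For H3K27me3, only Cryba2 was above background at the first 3 stages (17.51% of all symbols were at E17.5, 16.8% at PN1 and 16.5% at PN7). At PN15 Cryba2 and Cryba4 were (14.3%). With the 95th percentile as background these counts became 3 (Cryaa, Cryab and Cryba2) at E17.5 and 2 (Cryab and Cryba2) at PN1. At PN7 and PN15 they became 5 each, where 74.1% and 79.6% of all symbols were at or below that percentile. Such shares were not computed for E17.5 and PN1. At the 99th percentile Cryba2 was the single crystallin gene above background at all 4 stages, as were 11.4% of all symbols. Crybb2 and Crygs were at or below background in all 8 libraries, which held for 22.9% of all symbols. Both were among the 5 genes above the 95th percentile in H3K27me3 at PN7. The median H3K27me3 of the 9 genes was 15, 13, 21 and 28, against 11, 10, 9 and 10 over all symbols and 7, 7, 5 and 10 over the receptors.

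**Figure D1:**
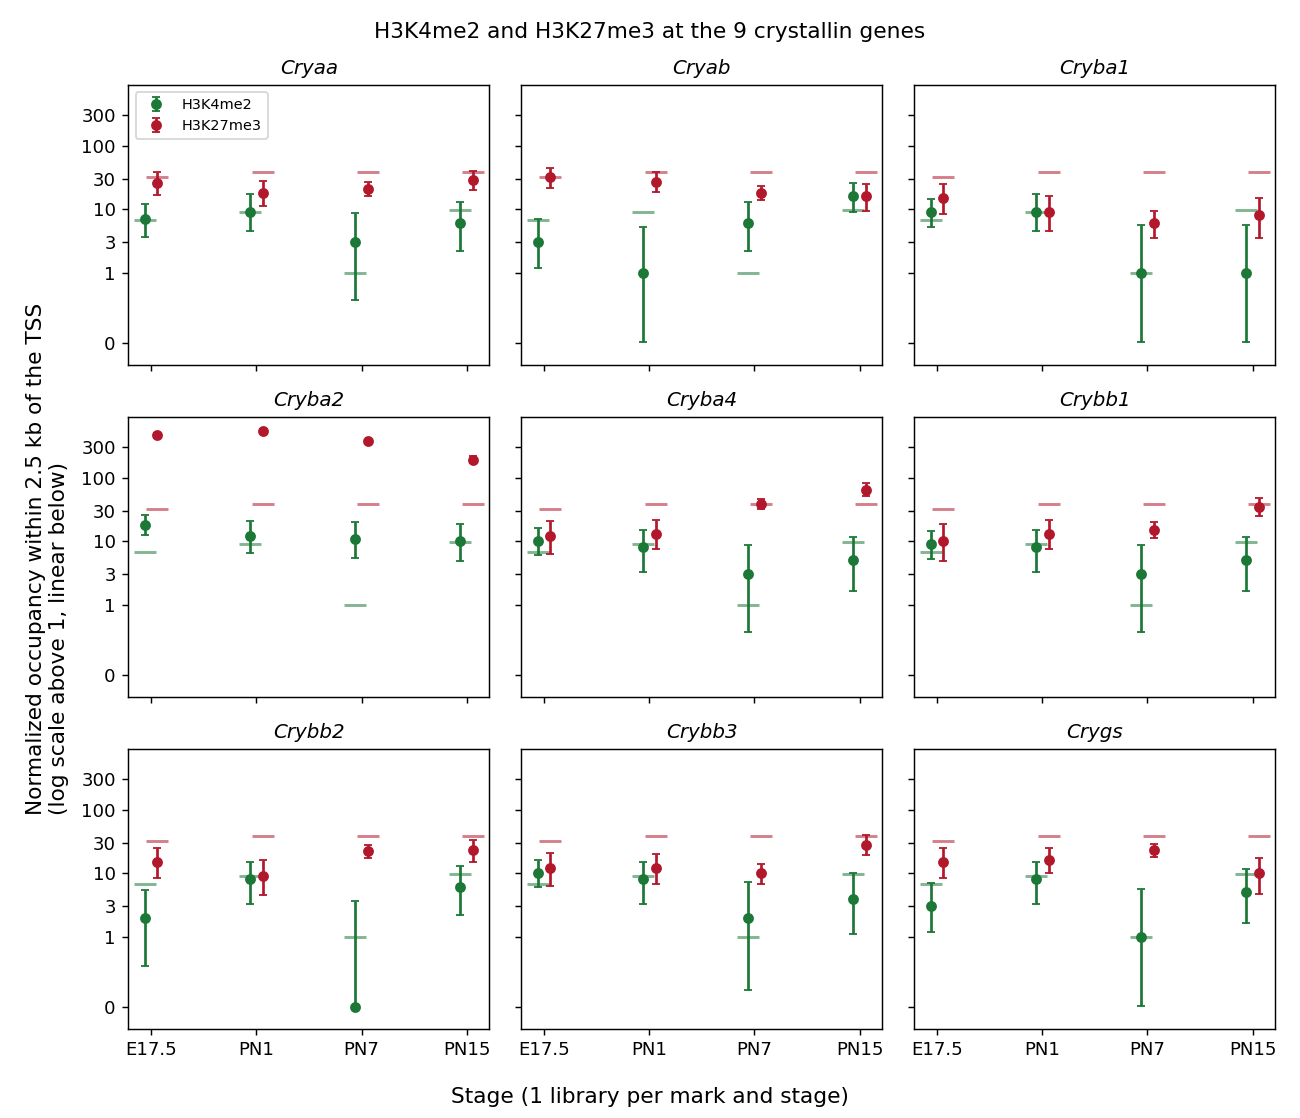
Normalized occupancy (y axis, log scale above 1 and linear below) of H3K4me2 (green) and H3K27me3 (red) at the 9 crystallin genes by stage (x axis), 1 library per point with its 95% counting interval. Short bars mark the 99th percentile of the receptor genes in each library. The H3K27me3 of Cryba2 lies between 192 and 548, and that of Cryba4 passes the bar only at PN15, at 65.

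Cryaa encodes alpha A-crystallin, the chaperone most restricted to the lens, and lies on chromosome 17 of mm9 (31814878 to 31818667, plus strand). Its H3K4me2 was 7, 9, 3 and 6 over the 4 stages. Its H3K27me3 was 26, 18, 21 and 29. The ratio of PN15 to E17.5 was 0.862 (counting interval 0.269 to 2.43) for H3K4me2 and 1.11 (0.642 to 1.93) for H3K27me3, so that no change in either direction was detectable at this depth. Its H3K27me3 was below background at every stage but in the upper part of the receptor range, with 93.6% to 98.0% of the receptors lower.

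Cryab encodes alpha B-crystallin, a stress-inducible small heat shock protein found in muscle, heart, glia and lens, and lies on chromosome 9 (50560863 to 50564738, plus strand). Its H3K4me2 was 3, 1, 6 and 16, the lowest of the 9 genes at PN1 and the highest at PN15. Its H3K27me3 was 32, 27, 18 and 16. H3K4me2 was thus higher and H3K27me3 lower at PN15 than at E17.5, and Cryab was the one crystallin gene where the counting intervals of both ratios excluded 1. The ratio of PN15 to E17.5 was 4.98 (1.85 to 15.5) for H3K4me2 and 0.491 (0.259 to 0.901) for H3K27me3. On the log2 scale with 1 added, H3K4me2 was 2.09 higher, and 99.2% of all symbols had a lower change.

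The start of Cryab lies 404 bp from that of Hspb2, another small heat shock protein, on the opposite strand, so that 4596 bp of both 5-kb windows are the same DNA. The H3K4me2 of Hspb2 was 3, 2, 6 and 13 and its H3K27me3 was 30, 28, 18 and 15. The values of both genes are therefore largely the same reads, and which of the promoters carried the marks cannot be read from them. The next start of a protein-coding gene with values on that side was that of 2310030G06Rik, at 6.24 kb. The window of 2310030G06Rik shares no base with that of Cryab or Hspb2. It had 100, 93, 50 and 24 units of H3K27me3, with H3K4me2 at 17, 11, 10 and 16.

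Cryba1 encodes the beta A3- and A1-crystallins, acidic beta-crystallins, and lies on chromosome 11 (77532117 to 77538785, minus strand). Its H3K4me2 was 9, 9, 1 and 1. Its H3K27me3 was 15, 9, 6 and 8, the lowest sum of the 9 genes. Its H3K4me2 was higher in both early libraries than in both late ones, and the intervals at E17.5 (5.30 to 14.6) and PN15 (0.0253 to 5.57) overlapped slightly. The log2 difference between PN15 and E17.5 was −2.32, and 0.838% of all symbols had a lower one. With 1 unit at PN15 no ratio is given.

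Cryba2 encodes beta A2-crystallin and lies on chromosome 1 (74936508 to 74939717, minus strand). Its H3K27me3 was 463, 548, 375 and 192, where the next highest crystallin gene of each stage had 32, 27, 38 and 65. At least 98.8% of all symbols were lower in each library, and all of the receptors were. The counting intervals were 422 to 507 at E17.5, 508 to 591 at PN1, 354 to 397 at PN7 and 167 to 219 at PN15. The highest value was at PN1 and the lowest at PN15, and none of the intervals overlapped, although those of E17.5 and PN1 nearly met. The ratio of PN15 to E17.5 was 0.415 (0.352 to 0.488), and that of PN15 to PN7 was 0.512 (0.441 to 0.592). The highest H3K27me3 of any entry went from 809 at E17.5 to 416 at PN15 as well, and the rank of Cryba2 hardly moved. H3K4me2 at Cryba2 was 18, 12, 11 and 10, and it was the one crystallin gene above background in that mark at every stage, at PN15 by less than 1 unit. Its intervals included the background at PN1 (6.55 to 21.0) and at PN15 (4.80 to 18.4). Of all symbols, 65.3% were above it at every stage, and 31.7% to 36.7% had less H3K4me2 than Cryba2. Cryba2 had 1578 units of H3K27me3 and 51 of H3K4me2 in sum over the 4 stages.

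The neighbours of Cryba2 were rich in H3K27me3 as well. Fev, a transcription factor of serotonergic neurons whose start lies 7.72 kb away, had 675, 811, 547 and 294. Ihh, a hedgehog ligand at 58.5 kb on the other side, had 675, 770, 493 and 209. Between Cryba2 and Ihh, Ccdc108 at 42.5 kb had 184, 241, 204 and 106, and beyond Fev, Cdk5r2 at 38.2 kb had 225, 313, 124 and 32. All 4 genes had their highest value at PN1 and their lowest at PN15, as Cryba2 had. This order was not particular to the locus. The H3K27me3 summed over all entries was 854731, 980808, 790454 and 590366, also highest at PN1 and lowest at PN15. Among the 4 neighbours, Cdk5r2 alone combined the order with H3K4me2 that went from 39 to 146. The windows of Fev and Cryba2 share no base. The genes with the most similar 8 values to Cryba2 were Otop1 (distance 0.535 over the 8 values of log2 occupancy with 1 added), Mmp9 (0.555) and Utf1 (0.572). Otop1, for example, had H3K27me3 of 477, 557, 366 and 177.

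Cryba4 encodes beta A4-crystallin and lies on chromosome 5 (112675513 to 112681538, minus strand). Its H3K27me3 was 12, 13, 38 and 65. Its H3K4me2 was 10, 8, 3 and 5. H3K27me3 was near the median of all symbols before birth and at PN1, just below background at PN7, and above it at PN15, when 91.2% of all symbols were lower. The ratio of PN15 to E17.5 was 5.38 (2.90 to 10.9), with a ratio of 2.91 (1.72 to 5.25) between PN1 and PN7 and of 1.69 (1.25 to 2.28) between PN7 and PN15. The log2 difference of 2.34 exceeded that of 99% of all symbols. Chi3l1 (distance 0.847), Mybph (1.23) and Ddo (1.5) had the most similar values, with H3K27me3 at PN15 of 56, 47 and 38.

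Crybb1, which encodes beta B1-crystallin, a basic beta-crystallin, is transcribed away from Cryba4 on the same chromosome (112684835 to 112698605, plus strand), and the starts lie 3297 bp apart. Its H3K27me3 was 10, 13, 15 and 35. Its H3K4me2 was 9, 8, 3 and 5, within 1 unit of Cryba4 in every library. The 1703 bp common to both windows count for both genes, so their values are not independent. The H3K27me3 of Crybb1 was higher mainly between PN7 and PN15, by a ratio of 2.33 (1.49 to 3.61), whereas that of Cryba4 was already higher at PN7. At PN7 the intervals of the pair, 31.7 to 45.6 for Cryba4 and 11.1 to 19.9 for Crybb1, did not overlap, nor did they at PN15 (50.7 to 81.1 and 24.9 to 47.5), so the mark was denser on the Cryba4 side. On the far side of Cryba4 the next start of a protein-coding gene with values was that of Mn1, at 835 kb. Mn1 had H3K27me3 of 15, 31, 53 and 112. On the side of Crybb1 the next such start was that of Tpst2, at 20.9 kb, with 13, 7, 20 and 19. Non-coding genes and genes without values were not searched.

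Crybb2 and Crybb3 encode 2 further basic beta-crystallins, of which beta B2-crystallin is the most abundant in the lens and is also made in retinal neurons. They lie in a row on chromosome 5 (Crybb2 at 113487278 to 113499137, Crybb3 at 113504859 to 113510604, both on the minus strand). Crybb2 had 2, 8, 0 and 6 units of H3K4me2 and 15, 9, 22 and 23 of H3K27me3. Its H3K4me2 was listed at 0 at PN7, with a counting interval of 0 to 3.69, and the interval of the ratio of PN15 to E17.5 (2.80, 0.664 to 13.5) included no change. Crybb3 had 10, 8, 2 and 4 units of H3K4me2 and 12, 12, 10 and 28 of H3K27me3. The H3K27me3 of Crybb3 thus lay within 2 units at the 3 early stages and was higher at PN15, with a ratio to E17.5 of 2.33 (1.17 to 4.96), but remained below background.

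Crygs encodes gammaS-crystallin, the gamma-type crystallin of the outer lens, and lies on chromosome 16 (22805276 to 22811483, minus strand). Its H3K4me2 was 3, 8, 1 and 5. Its H3K27me3 was 15, 16, 23 and 10. Neither mark exceeded background at any stage. The only step in its H3K27me3 with an interval that excluded no change was between PN7 and PN15, a ratio of 0.415 (0.199 to 0.786), opposite to Crybb1 and Crybb3 over the same step.

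**Figure D2:**
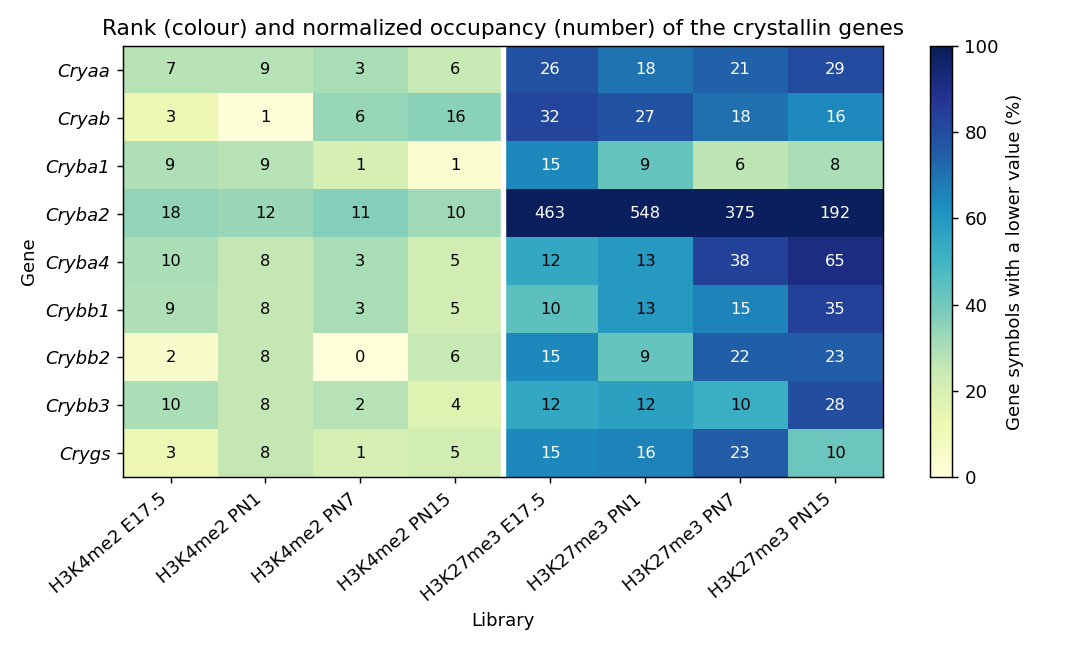
Each cell gives the normalized occupancy of a crystallin gene (rows) in a library (columns), coloured by the share of the 20045 symbols with a lower value. All H3K4me2 cells are pale (at most 36.7% of symbols lower), whereas the H3K27me3 of Cryba2 is at 98.8% or more throughout and that of Cryba4 darkens from 54.5% at E17.5 to 91.2% at PN15.

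Ordered by H3K27me3 at PN15, Cryba2 (192) was followed by Cryba4 (65), Crybb1 (35), Cryaa (29), Crybb3 (28), Crybb2 (23), Cryab (16), Crygs (10) and Cryba1 (8). The intervals of Cryba2 and Cryba4 overlapped with no other gene, and those of every neighbouring pair from Crybb1 to Cryba1 overlapped. At E17.5 the order below Cryba2 (463) was Cryab (32), Cryaa (26), then Cryba1, Crybb2 and Crygs (15 each), Cryba4 and Crybb3 (12 each) and Crybb1 (10), and all neighbours after Cryba2 overlapped. The genes that were lowest at E17.5, Cryba4, Crybb3 and Crybb1, were thus among the 5 highest at PN15. For H3K4me2 the intervals of all neighbours in the order overlapped at both stages.

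From E17.5 to PN15, H3K27me3 was 2-fold or more higher at 3 of the 9 genes, Cryba4, Crybb1 and Crybb3 (12.1% of all symbols), and 2-fold or more lower at Cryba2 (16.1%). Crybb3 lost this call with a pseudocount of 5, which left 2 genes. H3K4me2 was 2-fold or more higher at Cryab and Crybb2 (7.83%) and lower at Cryba1 and Crybb3 (11.7%). Only the call of Cryab held both with a pseudocount of 5 and with a larger value of at least 10: Crybb2 was lost under both, Crybb3 under the first and Cryba1 under the second. The ratio of Crybb3 was 0.393 (0.0972 to 1.18), an interval that included 1. The median log2 change of the 9 genes was 0.15 for H3K27me3 (5 higher, 4 lower), against 0.00 over all symbols and 0.49 over the receptors, and −0.74 for H3K4me2 (3 higher, 6 lower), against 0.13 and 0.00. Low values moved by this much in the receptors too: 23.1% of them were 2-fold or more higher in H3K27me3 and 2.83% lower, and 19.8% and 22.3% in H3K4me2. The 99th percentile of the change of the receptors in H3K27me3 was 2.17, which Cryba4 (2.34) exceeded and Crybb1 (1.71) and Crybb3 (1.16) did not. In H3K4me2 it was 2.32, and Cryab (2.09) lay inside it. The part that the higher PN15 background played in the values of Crybb1 and Crybb3 was not tested.

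**Figure D3:**
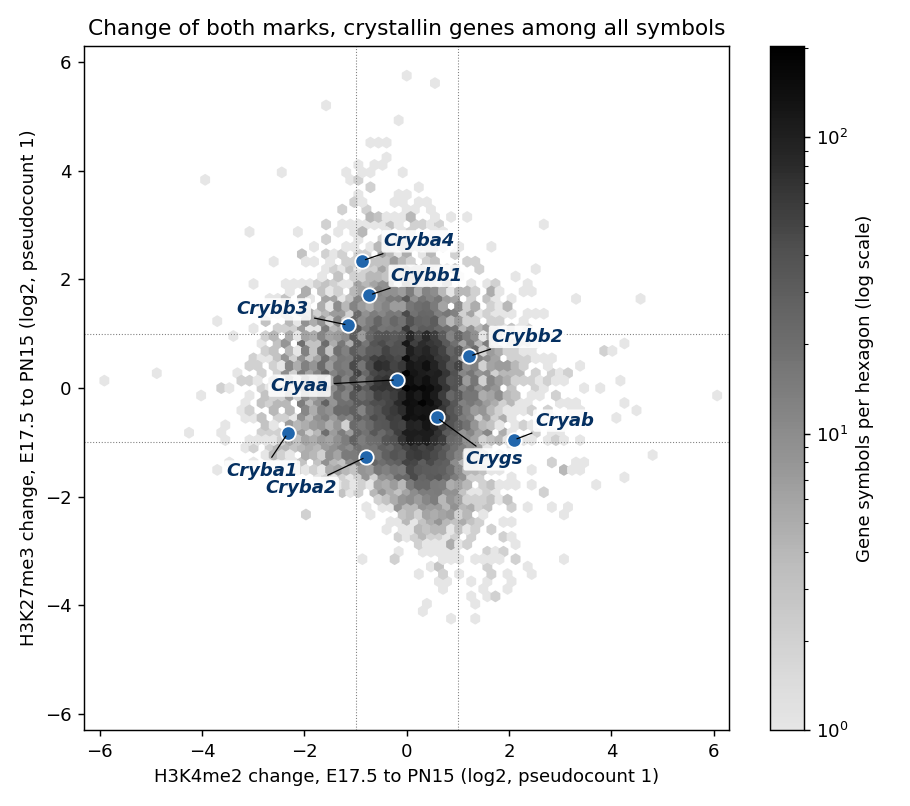
Log2 change from E17.5 to PN15 in H3K4me2 (x axis) and H3K27me3 (y axis), with 1 added to each value, for the 9 crystallin genes (blue) over all 20045 symbols (grey, darker where more symbols fall). Dotted lines mark a 2-fold change, and Cryba4 (2.34) and Crybb1 (1.71) are the highest in H3K27me3 and Cryab (2.09) the farthest right in H3K4me2.

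The CpG content of the 5-kb windows, which the occupancies do not enter, was compared with the marks in the annotation of mm9, whose starts lay within 10 bp of the RefSeq starts for the 8 genes with a promoter. Cryba2 had 113 CpG, Crybb3 102, Cryab 101, Cryaa 82, Cryba4 63, Crygs 57, Crybb1 and Crybb2 55 each and Cryba1 48, where the median of 19335 genes was 103. Cryba2 was thus the most CpG-rich of the 9, yet an ordinary gene in this respect, with 56.5% of genes having fewer. Among the 2669 genes within 10 CpG of Cryba2, 99.4% had less H3K27me3 in sum over the stages (median 39 against 1578) and 6.33% less H3K4me2 (median 187 against 51). Crybb3 and Cryab, with nearly as many CpG, had sums of 62 and 93 for H3K27me3 and of 24 and 26 for H3K4me2. For both, genes of like CpG content had a median H3K27me3 of 41, and 65.7% and 75.3% of them had less. In H3K4me2 the medians were 174 and 171, and 5.48% and 6.70% had less than Crybb3 and Cryab. Cryaa had more H3K27me3 than 72.0% of its like and more H3K4me2 than 20.3%. For the 5 genes with at most 63 CpG, Cryba1, Cryba4, Crybb1, Crybb2 and Crygs, the H3K4me2 sums of 16 to 26 lay in the middle of genes of like CpG content, with 40.9% to 63.4% of those lower. Cryba4, with 63 CpG, had more H3K27me3 than 84.4% of its like.

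**Figure D4:**
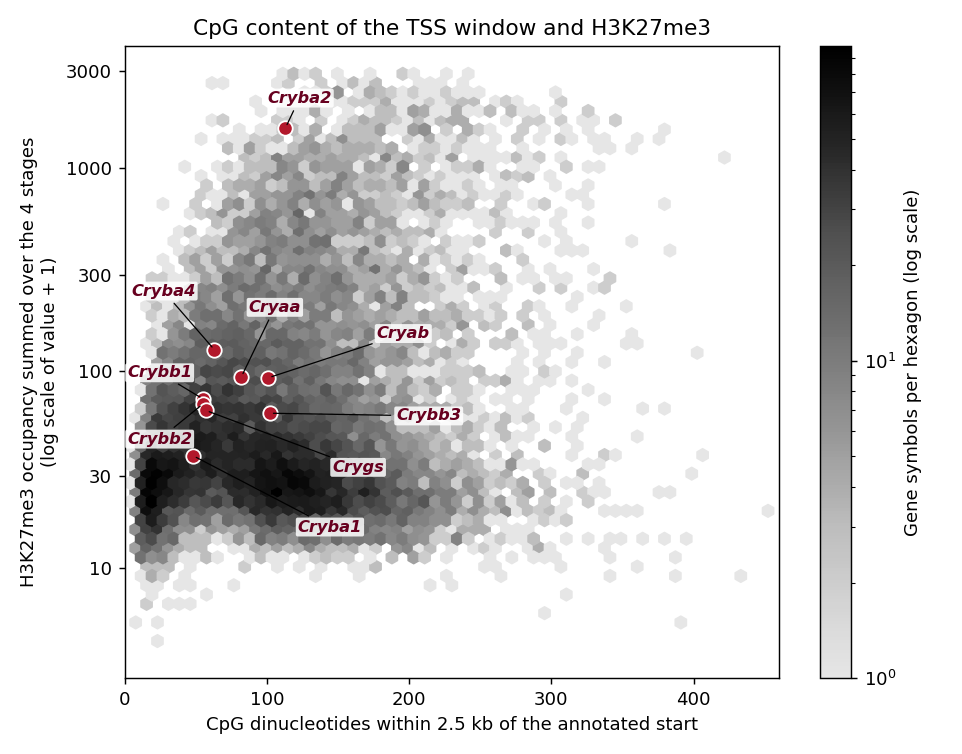
CpG dinucleotides in the 5-kb TSS window (x axis) against H3K27me3 summed over the 4 stages (y axis, log scale) for the 9 crystallin genes (red) over all genes with a window sequence (grey, darker where more fall). Cryba2, at 113 CpG and 1578 units, lies at the upper edge of the genes of its CpG content, and the other 8 lie between 38 and 128 units.

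The relatives of the 9 genes were read by the same measures, and no difference between lists was tested. For comparison, 65.3% of all symbols were above background in H3K4me2 at all 4 stages and 11.4% in H3K27me3. The share of all symbols above background at no stage was not computed for either mark, so counts at none have no comparison. Of 10 other crystallin and crystallin-domain genes in the table, 2 were above background in H3K27me3 at all 4 stages and 8 at none. Aim1, a large protein with crystallin domains, had 301, 379, 270 and 156, and with 49, 39, 31 and 29 it was also the one gene of the list above background in H3K4me2 at all stages. The lens gamma-crystallins Cryga to Crygf had H3K27me3 of 4 to 23, and Crygd had the highest summed H3K4me2 among them (19, 22, 1 and 6). Reads that matched several positions were left out by the authors, so values at near-identical gamma-crystallin copies are uncertain. Of the 8 small heat shock proteins other than the alpha-crystallins in the table, 1, Hspb1, was above background in H3K27me3 at all stages (229, 217, 140 and 77), and 4 in H3K4me2, with the highest level at Hspb6 (66, 56, 87 and 123). The enzyme crystallins, metabolic enzymes that some vertebrates use in the lens, had 4 of 5 genes above background in H3K4me2 at all stages, with Cryzl1 at 70, 55, 68 and 100, and 0 above it in H3K27me3 at all stages.

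Of 21 factors known to control crystallin genes or lens development, 20 were above background in H3K4me2 at all stages, where 65.3% of all symbols were. Maf, whose core element was searched for above, had 104, 64, 157 and 100. In H3K27me3, 7 were above background at all stages (11.4% of all symbols) and 10 at none, a share not computed for all symbols. Foxe3, a lens factor, was the highest (544, 668, 447 and 205). From E17.5 to PN15, 4 of the 21 were 2-fold or more higher in H3K27me3 (12.1% of all symbols) and 7 lower (16.1%).

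Lens tissue can enter a retina at dissection, and the lens list was therefore read beside the crystallin genes. Of its 14 genes, 10, 5, 8 and 4 were above background in H3K4me2 from the first stage to the last, where 72.6%, 69.0%, 72.1% and 68.3% of all symbols were, with summed H3K4me2 of 230, 163, 169 and 140. The defining fibre gene Mip had 10, 5, 0 and 7 units and was above background at E17.5 alone, and Lim2 had 2, 3, 0 and 1 and was so at no stage. Others were higher, such as Gja3 (28, 14, 18 and 16), Bfsp1 (19, 20, 20 and 8) and, highest of the list, Hsf4 (51, 23, 59 and 37). In H3K27me3, 4 of the 14 were above background at all stages (11.4% of all symbols) and 9 at none, a share not computed for all symbols. The lens list overlaps the regulators by 3 genes, Foxe3, Hsf4 and Pitx3. The part of lens cells in the H3K4me2 of the crystallin genes at E17.5 was not tested. Of 9 genes of the retinal pigment epithelium, another tissue that adheres to the retina, 5, 3, 4 and 5 were above background in H3K4me2, below those shares at every stage, with Mitf the highest (57, 31, 49 and 67) and Rpe65 at 1, 5, 0 and 2. All 7 genes of Müller glia, a cell type that makes alpha B-crystallin, were above background in H3K4me2 at E17.5, PN1 and PN7 and 6 at PN15. Their summed values were 480, 366, 378 and 334, while the H3K4me2 of Cryab went from 3 to 16. Glul (79 to 111) and Aqp4 (12 to 16) were higher at PN15 than at E17.5, and the rest of the 7 were lower. All 6 amacrine and ganglion cell genes were above background in H3K4me2 at every stage, and 5 were in H3K27me3.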

How the data were processed

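The series holds ChIP-Seq samples of mouse retina, of which 8 of 10 (H3K4me2 and H3K27me3 at 4 stages) were used. The other 2, H3K4me2 of rd1/rd1 retinas at PN30 and the anti-GFP control, have no column in the table and were not analysed here. The authors mapped reads with Bowtie 0.12.4 to mm9, removed reads with several positions, placed read midpoints on the assumption of 190-bp fragments, and summed them within 2.5 kb of each TSS. The deposited values are scores: these sums, normalized by the authors to all mapped reads of a library and rounded to whole numbers. Since they are not counts, no count-based test was applied, and only the counting intervals use a Poisson model on the inferred reads. Titles gave the mark of a library, because the labels and the methods give the antibody catalogue numbers the other way round, and the H3K27me3 column of PN7 carries an extra letter b.

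From these values, 1 entry per symbol (that with the largest sum) was kept, changes were taken as log2 with a pseudocount of 1, and 2-fold was the limit. The value of 1 read was sought in how often each whole number occurs. With 1 library per mark and stage no test between stages was possible, and no trend over the stages was tested. The genes, the lists and the rules were chosen with earlier results of these data known. Named genes were the 9 crystallin genes, starts within 5 kb, the 3 nearest profiles of the genes with the largest sums, and the top gene of each list (other crystallins, enzyme crystallins, small heat shock proteins, regulators, lens, pigment epithelium, rods, Müller glia, amacrine and ganglion cells). Flanking genes, Crygd, Mip, Lim2, Gja3, Bfsp1, Rpe65, Rlbp1, Glul and Aqp4 were named after their values were seen. Sequences came from mm9 with its gene annotation and from RefSeq promoters. Recovery of the value of 1 read and the 2-fold calls were tested on simulated data. The calls were simulated only at H3K27me3 values higher than most of the crystallin genes had. No other step was simulated. Calculations ran in Python 3.11.15 (scipy 1.17.1, numpy 2.4.6, matplotlib 3.10.9, pandas 2.3.3).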

Additional observations from a re-analysis of the deposited data

How the results depend on the processing

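Of 52 alternative calculations, 41 left a count within 1.5 times its value above and a median within the tolerance, none turned a direction, and 11 moved a count. With the 95th instead of the 99th percentile of the receptors as background, 3 crystallin genes were above it for H3K4me2 at PN1. For H3K27me3 the numbers became 3 (E17.5), 2 (PN1), 5 (PN7) and 5 (PN15). Of all symbols, 28.0% were at or below the 95th percentile for H3K4me2 at PN1. For H3K27me3 the share was 74.1% at PN7 and 79.6% at PN15, and it was not computed for E17.5 and PN1. With a pseudocount of 5, or with only genes whose larger value was at least 10, 1 gene was 2-fold higher (Cryab) and 1 gene 2-fold lower in H3K4me2 (Cryba1 with the pseudocount, Crybb3 with the filter). The pseudocount also took H3K27me3 from 3 genes higher to 2, without Crybb3. With a limit of 1.5-fold, 3 genes were higher and 5 lower in H3K4me2, and 4 were higher and 3 lower in H3K27me3. The share of all symbols at this limit was not computed. No paired analysis was possible because each mark and stage has 1 library, and for the same reason no library could be left out in turn. Low values limit the changes: for example, 1 unit of H3K4me2 stood for 1.87 reads at E17.5 and 1.06 reads at PN1.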

Other observations

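Among the 21 regulators of crystallin genes and lens development, the 4 with 2-fold or more H3K27me3 at PN15 than at E17.5 were Pax6, Sox2, Six3 and Maf, named here after their values were seen. H3K27me3 at Pax6, a factor that both the lens and the retina need, was 4, 15, 113 and 178 at the 4 stages, while its H3K4me2 was 137, 97, 114 and 44. Sox2, a progenitor factor, had 26, 75, 112 and 182 units of H3K27me3, Six3 had 3, 10, 16 and 22, and Maf had 17, 25, 56 and 65. Foxe3, Hsf4, Sox1, Pitx3 and Mafa went the other way from high levels, Sox1 for example from 514 to 184. Of the crystallin genes, Cryba4, Crybb1 and Crybb3 were 2-fold or more higher by the same rule and Cryba2 lower.

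The 4 lens genes above background in H3K27me3 at all stages were Foxe3, Hsf4, Gja3 and Pitx3. Gja3, a gap junction protein of lens fibres, had 383, 352, 293 and 107 units. Of the 7 Müller glia genes, 3 had 2-fold or more H3K27me3 at PN15 than at E17.5 and 1 had 2-fold or more less, against 12.1% and 16.1% of all symbols. Rlbp1, a retinoid carrier, had 8, 11, 55 and 136 units and Glul, glutamine synthetase, had 13, 3, 5 and 5. No difference between these lists was tested.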
